A study of Mus musculus with 12 samples.

Results

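The 4 genes described here encode enzymes that make, interconvert or use ketone bodies: Acat1, Bdh1, Bdh2 and Oxct1. They were taken from the deposited table by gene symbol, all 4 were found among its 34986 genes, and all 4 were among the 19006 genes that passed a filter on low values. The samples were livers of female C57BL/6 mice aged 16 weeks, 6 given valproic acid (VPA), an antiepileptic branched fatty acid with known liver toxicity, and 6 given VPA together with obeticholic acid (VPA_OCA), a semisynthetic bile acid and agonist of FXR, the bile acid receptor. All mice received VPA, and neither the dose nor the duration is stated in the labels used here. According to its title, the series is about FXR in the liver toxicity of VPA. The question put to the data here is whether transcripts of ketone body enzymes differ between the treatments. Each sample is whole liver, so that fewer cells of a type and less RNA per cell cannot be told apart.

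During fasting, ketone bodies are made in the mitochondria of hepatocytes from the acetyl-CoA that fatty acid oxidation yields. Acat1, the mitochondrial acetoacetyl-CoA thiolase, joins acetyl-CoA units at the start of the route to acetoacetate, and Bdh1, the mitochondrial dehydrogenase, reduces acetoacetate to 3-hydroxybutyrate for export to other organs. Oxct1 activates acetoacetate for burning in muscle, heart and brain and is known to be scarce in hepatocytes, while Bdh2 is a cytosolic short-chain dehydrogenase that can oxidise 3-hydroxybutyrate and has also been tied to iron handling.

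Bdh2 was 1.64-fold higher in VPA_OCA than in VPA, with no overlap between the groups, and was the 1 gene of the 4 that passed the test. Acat1, Bdh1 and Oxct1 did not pass, with overlapping groups and 95% intervals of the fold that ran from 0.826 to 1.29, from 0.796 to 1.11 and from 0.711 to 1.29. Of all 19006 genes tested, 0.721% were called in either direction and 0.442% were called higher. Levels are normalized counts as the authors deposited them. Folds come from log2 values after adding 1, means are given ± SD with n = 6, and adjusted p-values are from limma with an intensity trend and Benjamini-Hochberg adjustment over the 19006 genes, called under 0.05.

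The sequence before the start of Bdh2, the gene that rose, is shown beside that before the upstream start of Bdh1, which catalyses the same named reaction in mitochondria and did not pass. Both are the 250 bases before a RefSeq start on the plus strand (build GRCm38.p6), chr3:135280971-135281220 for Bdh2 and chr16:31422047-31422296 for Bdh1. TGTTTNC was chosen after the Bdh2 sequence had been seen. Capitals mark matches, on either strand, to TGTTTNC or to GGGTCA, a half-site of nuclear receptors. TGTTTNC, with any base at N, is a loose spelling of the core of forkhead factor sites, and not every match need be one.
Bdh2: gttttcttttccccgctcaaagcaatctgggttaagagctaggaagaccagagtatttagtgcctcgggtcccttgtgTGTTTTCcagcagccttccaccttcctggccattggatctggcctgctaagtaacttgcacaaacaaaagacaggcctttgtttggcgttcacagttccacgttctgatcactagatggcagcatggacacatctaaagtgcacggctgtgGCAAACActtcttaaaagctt
Bdh1: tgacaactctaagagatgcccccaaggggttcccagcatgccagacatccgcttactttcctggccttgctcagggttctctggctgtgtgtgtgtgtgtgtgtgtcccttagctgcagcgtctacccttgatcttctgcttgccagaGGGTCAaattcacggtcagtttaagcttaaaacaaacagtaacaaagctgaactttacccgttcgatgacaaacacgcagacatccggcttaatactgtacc
The Bdh2 window held 2 matches to TGTTTNC, beginning 172 and 21 bases before the start, and 17.8% of all 32851 windows of that length held at least 1. The Bdh1 window held 1 match to GGGTCA, 102 bases before the start, and 11.6% of windows held at least 1; the Oxct1 window (chr15:4026178-4026427) also held 1, 145 bases before the start. The half-site AGGTCA, found in 14% of windows, and the paired sites AGGTCA, any base, TGACCT (an inverted repeat bound by FXR) and AGGTCA, any base, AGGTCA (a direct repeat bound by PPAR) were in none of these 3 windows, nor in that of a downstream start of Bdh1. In this exact spelling the inverted repeat was in 0.00609% and the direct repeat in 0.0335% of all windows. Their absence from so few windows is therefore uninformative about binding by FXR or PPAR. TGACNNNGC, found in 10.2% of all windows, and CACGTG, found in 6.02%, were also searched for and were in none of the windows of Bdh1, Bdh2 and Oxct1. A match describes the letters only.

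Acat1 (ENSMUSG00000032047, chromosome 9, 53580522 to 53610382, GRCm38) opens the pathway. It had 7329, 7866 and 10230 normalized counts as lowest, median and highest VPA value and 5968, 8778 and 11730 in VPA_OCA. The VPA_OCA libraries spanned the whole VPA range, with 1 above its top and 1 below its bottom. The means were 8437 ± 1171 and 8847 ± 2064, and the log2 difference was 0.05 ± 0.15 (SE, limma adjusted p = 0.97).

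Bdh1 (ENSMUSG00000046598, chromosome 16, 31422280 to 31458901) closes it. Its lowest, median and highest values were 4961, 6057 and 6705 in VPA and 4348, 5649.5 and 6786 in VPA_OCA. Again 1 VPA_OCA library lay above all VPA libraries and 1 below. Bdh1 measured 6010 ± 634 in VPA and 5679.5 ± 838 in VPA_OCA, and the log2 difference was -0.09 ± 0.11 (SE, limma adjusted p = 0.88).

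Bdh2 (ENSMUSG00000028167, chromosome 3, 135281221 to 135304426) was the least like the others. Its lowest, median and highest values were 151, 219 and 255 in VPA and 289.9, 344 and 396 in VPA_OCA. Each of the 6 VPA_OCA livers lay above the highest VPA liver, a separation in this direction that 0.916% of the genes tested showed. Mean Bdh2 rose from 214 ± 36.4 to 349 ± 39.8, a log2 difference of 0.72 ± 0.13 (SE, limma adjusted p = 0.012). The 95% interval of the fold ran from 1.36 to 1.98.

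Oxct1 (ENSMUSG00000022186, chromosome 15, 4026383 to 4155344), the gene of ketone use, was low in every liver. Its lowest, median and highest values were 45.0, 77.0 and 98.0 in VPA and 50.8, 74.5 and 88.4 in VPA_OCA. All 6 VPA_OCA values lay within the VPA range. The means were 74.4 ± 17.4 and 71.0 ± 17.1, and the log2 difference was -0.07 ± 0.20 (SE, limma adjusted p = 0.97).

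**Figure D1:**
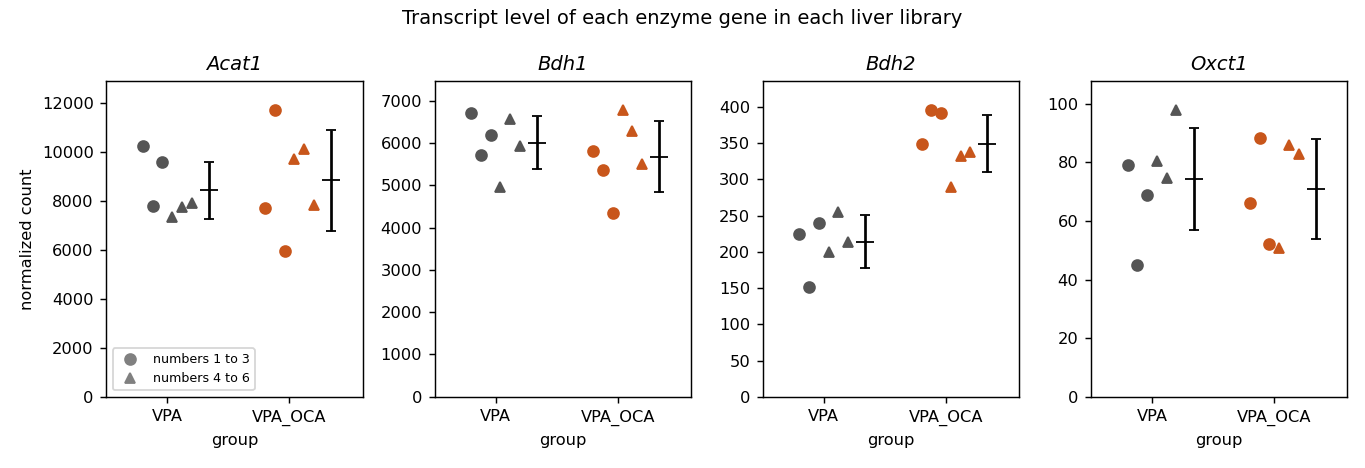
Normalized count (vertical axes, from 0) of Acat1, Bdh1, Bdh2 and Oxct1 in each of the 6 VPA and 6 VPA_OCA libraries, with the mean and SD as a black bar and circles or triangles for replicate numbers 1 to 3 or 4 to 6. Bdh2 lies between 151 and 255 in VPA and between 289.9 and 396 in VPA_OCA, while the groups overlap for the other 3 genes.

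The authors' deposited table gives its own adjusted p-values for the comparison, and 5.57% of the 12517 genes it calls present are under 0.05 there. In the authors' deposited table Bdh2 has an adjusted p of 0.00015, Bdh1 of 0.71, Acat1 of 0.82 and Oxct1 of 0.90. Some genes of the lists below that limma did not call are also under 0.05 there. Of the pathway these are Hadhb (0.026), Crat (0.034), Pcx (0.033) and Bcat2 (0.046). Of the cell type markers they are Hal (0.0018), Cyp2f2 (0.01), Oat (0.00091) and Lyve1 (0.0059). Thyn1, named below for its likeness to Bdh2, is at 0.022. Overlapping genes had few or no counts. No gene of the table overlaps Bdh2 or Acat1, the antisense gene inside Bdh1 (Gm15743) is at 0 in all libraries, and of the antisense pair at Oxct1 Gm15632 is at 0 and BC037032 reaches at most 4.33 normalized counts. The neighbours of Bdh2 within 100 kb were low and did not pass, the sodium-proton exchanger gene Slc9b2 at means of 4.98 and 9.70 and the mitotic motor gene Cenpe at 4.75 and 5.36 (limma adjusted p = 0.51 and 0.96).

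Livers with replicate numbers 1 to 3 and those with 4 to 6 stood apart in both groups along the first principal component (40.4% of the variance), and the labels name no batch. The share of counts from the mitochondrial genome was 9.09% to 11.7% in numbers 1 to 3 and 5.84% to 7.51% in 4 to 6. Bdh2 was higher in VPA_OCA in both sets. Within numbers 1 to 3 its means were 205 ± 47.5 in VPA and 379 ± 25.9 with OCA added (n = 3 each, log2 fold change 0.91, limma adjusted p = 0.051), where 0.384% of genes were called higher. Within 4 to 6 it measured 223 ± 28.6 and 319.9 ± 26.2 (n = 3 each, log2 fold change 0.52, limma adjusted p = 0.15), where 0.347% were called higher, so that Bdh2 passed in neither set alone. With the sets as a term Bdh2 had a limma adjusted p of 0.0046, where 1.34% of genes were called higher. With the replicate number as a block it had 0.016, where 0.679% of genes were called higher, 129 against 84 without the block.

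The other 3 genes had log2 fold changes of opposite sign in the sets. Bdh1 measured -0.27 and 0.09, Acat1 -0.17 and 0.26, and Oxct1 0.10 and -0.23, none of which passed (limma adjusted p of 0.44 to 0.92). Whether these differences depend on the set was not tested. Skeletal muscle, which expresses Oxct1, also left transcripts in 2 libraries: the summed counts of 10 muscle markers were 725 in VPA replicate 4 and 170.4 in VPA replicate 5, against 9.49 to 33.2 in the other 10. Oxct1 was 80.6 and 74.8 in these 2 libraries, within the range of the other VPA libraries. Without them Oxct1 had a log2 fold change of -0.02 and Bdh2 of 0.76 (limma adjusted p = 0.99 and 0.027).

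**Figure D2:**
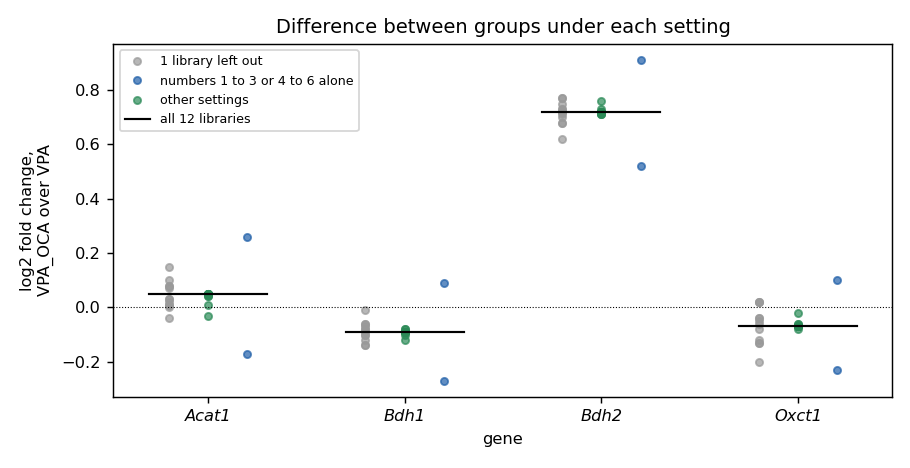
Log2 fold change of VPA_OCA over VPA (vertical axis) for the 4 genes, with all 12 libraries as a black line and points for each library left out, each set of replicate numbers alone, and the other settings. Bdh2 stays between 0.52 and 0.91 in all of them, while the other 3 genes lie on either side of 0.

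Levels of different genes were compared as FPKM, the authors' values per gene length. Acat1 was the highest, at 248 to 326 FPKM in VPA and 205 to 376 in VPA_OCA. Bdh1 followed at 175 to 226 and 156 to 229. The ranges of these 2 genes overlap in VPA_OCA, but within every one of the 12 libraries Acat1 was above Bdh1, by a ratio of 1.13 to 2.10. Both lay above at least 97.2% of the genes tested by mean FPKM. Bdh2 had 4.83 to 7.70 FPKM in VPA and 8.61 to 12.3 in VPA_OCA, and Oxct1 1.61 to 3.21 and 1.69 to 2.91. The ranges of Bdh1, Bdh2 and Oxct1 did not overlap each other in either group.

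The ratio of Bdh1 to Bdh2 in FPKM was 28.3 to 43.1 in the VPA livers and 12.7 to 26.6 in the VPA_OCA livers. The transcript of the mitochondrial enzyme, Bdh1, thus remained in large excess in both. The ratio of Bdh1 to Oxct1, a gene of synthesis to a gene of use, was 61.6 to 129 in VPA and 61.7 to 136 in VPA_OCA. These ratios are descriptions of the same values and were not tested.

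**Figure D3:**
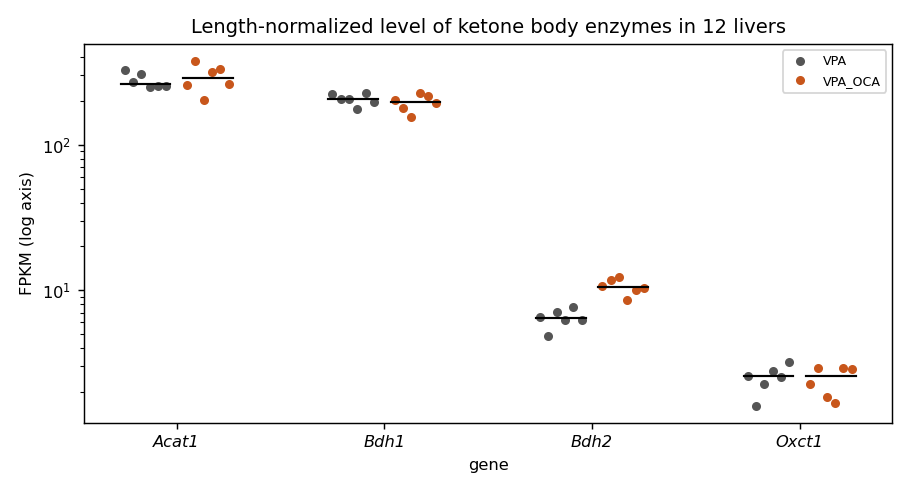
FPKM on a log axis (vertical) of the 4 genes in each VPA (grey) and VPA_OCA (orange) library, with the group median as a black bar. Acat1 and Bdh1 lie between 156 and 376, Bdh2 reaches 12.3 and Oxct1 3.21.

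Over the 12 libraries Pearson's r of the log2 values was 0.60 between Bdh1 and Acat1, 0.34 between Acat1 and Oxct1 and -0.26 between Bdh1 and Bdh2, with 0.10 to 0.16 for the other 3 pairs of the 4 genes. Within numbers 1 to 3 and within 4 to 6 (6 libraries each) r was 0.64 and 0.67 for Bdh1 with Acat1, but -0.56 and 0.41 for Bdh1 with Bdh2 and 0.82 and -0.43 for Acat1 with Oxct1. The liver lowest in Bdh1 was also lowest in Acat1 in each group. In VPA this was replicate 4, at 4961 and 7329 normalized counts of these genes, and in VPA_OCA it was replicate 3, at 4348 and 5968. Values of a library share its depth and scaling, and these r are given as descriptions.

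The genes whose log2 values over the 12 libraries were most like those of Bdh2, among 10235 genes with a mean of at least 50, were Gsta4, Gstt1 and Thyn1, with r of 0.95, 0.93 and 0.91. Gsta4 and Gstt1 are glutathione transferases, which join glutathione to reactive compounds. Gsta4 went from 1170.2 ± 98.5 to 2327 ± 307 and passed (limma adjusted p = 8.9e-05). Its 6 VPA_OCA livers, like those of Bdh2, all lay above the VPA livers. Gstt1 measured 7698 ± 798 and 9458 ± 863 and Thyn1 206 ± 18.1 and 270.1 ± 31.9, without passing (limma adjusted p = 0.26 and 0.13). The group difference enters these r; within the VPA livers alone they were 0.88, 0.87 and 0.74 and within the VPA_OCA livers alone 0.93, 0.81 and 0.78 (6 libraries each).

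**Figure D4:**
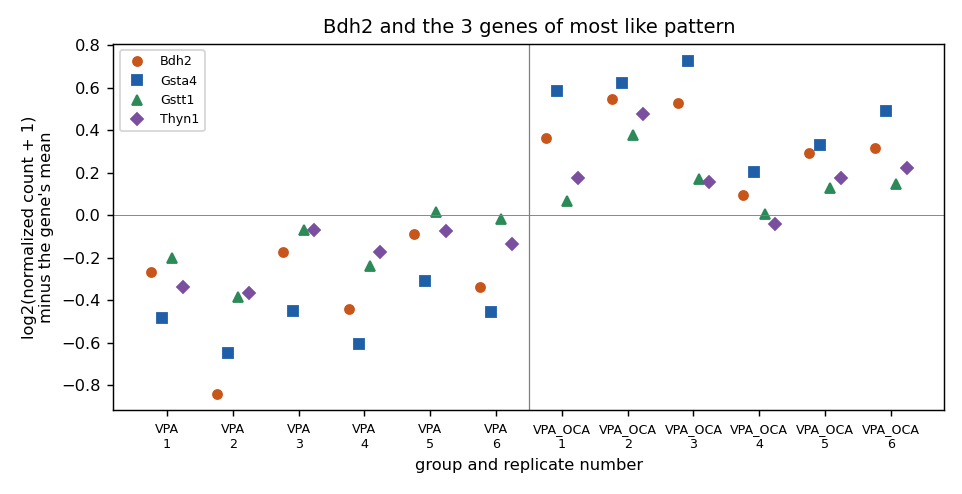
Log2(normalized count + 1) minus the mean of each gene (vertical axis) in the 12 libraries for Bdh2, Gsta4, Gstt1 and Thyn1. All 4 genes are lowest in VPA replicate 2, and Bdh2, Gsta4 and Thyn1 are lower in each VPA library than in any of the VPA_OCA libraries.

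The other 3 genes were each most like a different set. For Bdh1 these were B3galnt2 (r = 0.87), Txndc15 and the cytochrome P450 gene Cyp2c67 (0.86 each). For Acat1 they were the apolipoprotein gene Apof (0.85), Hddc3 (0.83) and the ubiquitin ligase scaffold gene Cul1 (0.82). For Oxct1 they were the complement inhibitor gene Cd59b (0.90), Pamr1 (0.88) and Fkbp11 (0.86). Within the VPA livers alone r of Apof with Acat1 was 0.34, against 0.97 within the VPA_OCA livers, while the other 8 of these 9 genes had 0.71 to 0.99 in either group. No gene was among the 3 most like of more than 1 of the 4. Genes named for likeness were picked as the highest r among 10235, so high values follow in part from the choice. The r within groups come from the same libraries. Spearman's rank correlation was 0.91 to 0.99 for the genes named for Bdh2 and 0.78 to 0.90 for those of Bdh1. It was 0.62 to 0.78 for those of Acat1 and 0.73 to 0.88 for those of Oxct1.

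Of the other genes of ketone body synthesis, use and salvage, the list reported holds 7, of which 5 were tested, and limma called none higher or lower (1 had an unadjusted p under 0.05), with a median log2 fold change of 0.24 against -0.001 over all genes. The cytosolic thiolase gene Acat3 measured 4466 ± 292 and 5335 ± 869.6 (limma adjusted p = 0.51). The cytosolic synthase gene Hmgcs1, of sterol synthesis, measured 4964 ± 2239 and 7280.2 ± 4844 and Aacs, which activates acetoacetate for lipid synthesis, 2295 ± 1156 and 3264 ± 1958 (limma adjusted p = 0.86 each). Acat2, a thiolase of the cytosol, measured 2551 ± 1019 and 2929 ± 1243 (limma adjusted p = 0.91). In VPA these 3 genes, Hmgcs1, Aacs and Acat2, were highest in replicate 4. The testis forms of Oxct1 were absent or nearly so, Oxct2a at 0 in all libraries and Oxct2b too low to be tested.

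Of 8 tested genes of ketone body transport and sensing, 1 fell and 7 did not pass, with a median log2 fold change of -0.14, and 0.279% of all genes tested were called lower. The monocarboxylate transporter gene Slc16a13 fell from 35.3 ± 5.81 to 13.5 ± 3.29, a 2.53-fold difference (limma adjusted p = 0.0038). Its level was low, at 10.4 to 18.2 normalized counts in VPA_OCA, and whether its product carries ketone bodies was not tested. Within numbers 1 to 3 and 4 to 6 alone its log2 difference was -1.34 in both and did not pass (limma adjusted p = 0.073 and 0.10, n = 3 each). Its lowest VPA liver lay above its highest VPA_OCA liver, a separation in this direction that 0.526% of genes showed. The ketone body exporter gene Slc16a6 had a log2 difference of -0.12 and Slc16a1, a general carrier of lactate and ketone bodies, measured 673 ± 99.3 and 619 ± 194, without passing (limma adjusted p = 0.89 and 0.86). Slc16a3 and the 3-hydroxybutyrate receptor gene Hcar2 were near the lower limit of the table, at means of at most 6.49.

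None of the 17 regulators of ketogenesis passed in limma (1 had an unadjusted p under 0.05), with a median log2 fold change of -0.07. Ppara, the fatty acid sensor that drives ketogenic genes, measured 1878 ± 238 and 1801 ± 307 (limma adjusted p = 0.93). Its partner gene Rxra measured 7948 ± 954 and 6553 ± 1026 and the glucagon receptor gene Gcgr 5147 ± 385 and 5677 ± 255 (limma adjusted p = 0.45 and 0.63). The insulin receptor gene Insr and the PPAR target Angptl4 measured log2 fold changes of -0.17 and -0.27 without passing. The fasting hormone gene Fgf21 measured 53.5 ± 13.7 and 92.8 ± 63.1 (limma adjusted p = 0.79). Within numbers 4 to 6 alone (n = 3 each) Fgf21 had a log2 fold change of 1.61 and a limma adjusted p of 0.041, and within 1 to 3 one of -0.62 and 0.56.

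Genes of beta-oxidation to acetyl-CoA lay mostly lower in VPA_OCA without passing. Of 24 tested, limma called none (5 had an unadjusted p under 0.05), and 22 had a negative log2 fold change, against 50.1% of all genes, with a median of -0.15. These 24 genes were measured in the same livers and are not independent observations, and the list as a whole was not tested. The trifunctional protein genes measured 5835 ± 868 and 4445 ± 549.7 (Hadhb) and 6899 ± 562 and 5648 ± 720.2 (Hadha), with limma adjusted p of 0.19 and 0.28. The authors' own adjusted p is 0.026 for Hadhb and 0.071 for Hadha. The electron carrier dehydrogenase gene Etfdh and the isomerase gene Eci2 measured log2 fold changes of -0.34 and -0.35 (limma adjusted p = 0.28 and 0.44).

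Among 15 genes of acetyl-CoA disposal and 17 of leucine and isoleucine breakdown, in which Acat1 also takes part, limma called none (2 and 1 had an unadjusted p under 0.05). Their median log2 fold changes were 0.04 and -0.02. The pyruvate carboxylase gene Pcx, which feeds oxaloacetate for citrate and glucose, measured 11187 ± 1091 and 14092 ± 2288 (limma adjusted p = 0.35), and passed with the sets of numbers as a term (limma adjusted p = 0.029). The acylcarnitine-forming enzyme gene Crat measured 2349 ± 247 and 1802 ± 414 (limma adjusted p = 0.28). It passed within numbers 1 to 3 alone, with a log2 fold change of -0.80 (n = 3 each, limma adjusted p = 0.007), while within 4 to 6 it measured -0.01 (n = 3 each, limma adjusted p = 0.98). Idh2 and Suclg1, of the citric acid cycle, measured log2 fold changes of -0.22 and 0.20. The branched-chain aminotransferase gene Bcat2 measured 542 ± 69.2 and 674 ± 52.5 (limma adjusted p = 0.21), and Ivd, Auh and Hibch -0.22, 0.23 and 0.29 on the log2 scale, without passing.

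**Figure D5:**
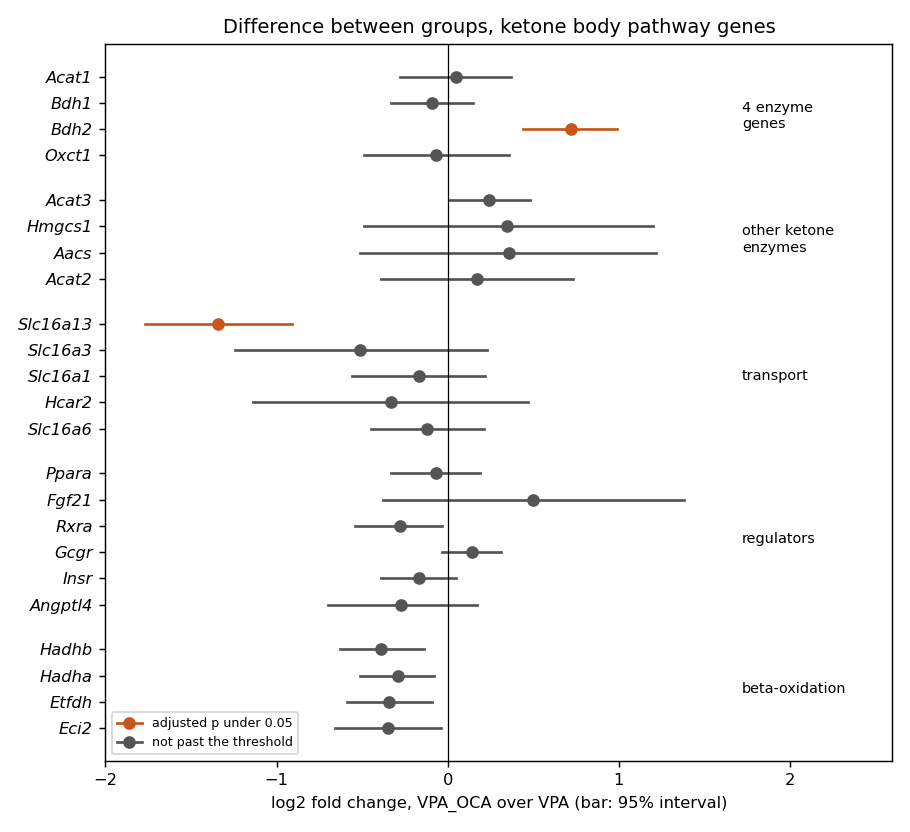
Log2 fold change of VPA_OCA over VPA (horizontal axis) with its 95% interval for the 4 genes and for named genes of the pathway, grouped by role. Bdh2 (0.72) and Slc16a13 (-1.34) are the 2 genes past the threshold.

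The livers expressed hepatocyte markers throughout, with summed counts of 6 of them of 2219240 to 3228110 in VPA and 1974610 to 3234460 in VPA_OCA. Ketone body synthesis is known to be more active in periportal than in pericentral hepatocytes. Of 10 periportal markers none passed in limma (1 had an unadjusted p under 0.05, median log2 fold change 0.10), with summed counts of 263641 to 336546 in VPA and 264949 to 395971 in VPA_OCA. Of 10 pericentral markers 2 fell, where 0.279% of all genes were called lower: Slc1a2 by 0.72 and Rhbg by 0.71 on the log2 scale (limma adjusted p = 0.016 and 0.033), and 8 did not pass (median -0.31), with summed counts of 121407 to 213422 and 88709 to 154047. Without VPA replicates 4 and 5 Rhbg no longer passed (log2 fold change -0.59, limma adjusted p = 0.13). Among 7 cholangiocyte markers Cdh1 rose by 1.14 on the log2 scale (limma adjusted p = 0.037) and 6 did not pass, where 0.442% of all genes were called higher. The median log2 fold change of the 7 was 0.05, with 3 negative, and their summed counts were 667 to 1109 and 705 to 1521. Spp1 (means of 477 in VPA and 491 in VPA_OCA) and Cdh1 (244 and 583) made up most of these sums. Krt19, Krt7, Epcam, Sox9 and Cftr had means of at most 37.7. The log2 fold change of Cdh1 was 0.60 within numbers 1 to 3 and 1.69 within 4 to 6 (n = 3 each, limma adjusted p = 0.15 and 0.00022), and 1.21 without VPA replicates 4 and 5 (limma adjusted p = 0.076). The 8 macrophage and 8 endothelial markers gave no call in limma (0 and 1 had an unadjusted p under 0.05), with summed counts of 3454 to 9525 and 3757 to 6668 for the first and 2981 to 5450.4 and 3026 to 4360.1 for the second. Their median log2 fold changes were -0.11 and -0.23, with 6 and 8 of the 8 markers negative. Within numbers 1 to 3 the medians were 0.21 and 0.10, and within 4 to 6 they were -0.37 and -0.59. Of these 6 lists no marker was at 0 in all libraries, and the part of cell makeup in the rise of Bdh2 was not tested.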

How the data were processed

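RNA of 12 flash-frozen mouse livers (6 VPA, 6 VPA_OCA) was extracted with Trizol and made into TruSeq libraries, per the labels' protocols. The submitters' processing notes name edgeR and GRCm38.p5. For aligner, counter and strandedness the sources used here give nothing. Per the file headers, the authors deposited normalized counts (a signal that is not whole) and FPKM for each gene and library. The authors' p-values, adjusted p-values, a GC fraction (not used further) and a length per gene are deposited too. Some cells carried a decimal comma with an exponent and were 1000 times too large, and these were divided by 1000 (238 p-values, 88 adjusted p-values, 89 normalized counts, 129 FPKM); adjusted p-values recomputed over 12517 genes then differed from the authors' by at most 0.538%. Totals were 20236900 to 22087711 normalized counts per library, and the commonest low value, taken as 1 read, gave 17879222 to 37766890 reads. Low values within 0.1 of a whole multiple made up 79.7% to 84.6%, so whole reads were not recovered and limma was used in place of a count model. Precision rests on the spread between livers, which nothing in the labels ties to separate litters or days. The 30 pairs of libraries within groups differed by 19.5 to 228 times the sampling variance.

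The 19006 genes reaching 1 normalized count in 6 or more libraries were kept. Their log2 values, after a pseudocount of 1, were compared by limma (version 3.58.1, R 4.3.3) with an intensity trend and no covariate, two-sided, and p-values were adjusted by Benjamini-Hochberg. On simulated data for this comparison (17864 genes tested), changes of 1.5-fold were found in 46.3% of the genes given one, changes of 2-fold in 83.6% and changes of 4-fold in 98.5%, and 4 of the 156 calls were false. Only genes with a mean above 50 were given a change, and the largest spreads were capped. Livers were drawn independently, without the sets of numbers, so these shares need not hold for the real libraries. Same-numbered libraries of the groups deviated together (r of 0.15 to 0.48 over 11481 genes, in every one of 6 pairs), but for 4 of 12 libraries only was the own number the best match. Every best match lay within the same set of numbers, 1 to 3 or 4 to 6, so the check cannot tell pairs from sets. The labels give no pairing, and the replicate number served as a block in an alternative only. The 4 genes and the 16 lists (6 of the pathway, 10 of markers; 168 of 169 entries found) were chosen with earlier results of these data known. Genes named are the 4, Ppara and Fgf21, pathway genes past the threshold, up to 4 further genes per pathway list by p, and the 3 genes with the highest Pearson r to each of the 4 (mean of at least 50, unnamed models left out), with markers whose values stand beside a result. Neighbours of the 4 genes and the forms Oxct2a and Oxct2b fall outside this rule and were named after their values were seen. Alternatives were median-ratio and upper-quartile scaling, a pseudocount of 0.1 or 5, filters, variance models, the replicate block, the sets of numbers, FPKM with a pseudocount of 0.01, thresholds of 0.10 and 0.01, and each library left out. Promoter sequences are from RefSeq (GRCm38.p6), found for 3 of the 4 genes. Of the lists of skeletal muscle, stellate cell, adipocyte and lymphocyte markers (10, 8, 6 and 6 genes), 4, 8, 5 and 6 genes were tested. They gave no call in limma, and none of the tested genes had an unadjusted p under 0.05. Some genes of the pathway are not reported here. Figures were drawn with matplotlib 3.10.9.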

Additional observations from a re-analysis of the deposited data

Results flagged for a closer look

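In 5 of 70 groups of 6 values examined, the highest or lowest library was separated from the rest by a gap larger than Dixon's 95% limit, and chance alone gives about 1 in 20. In VPA replicate 4, Hmgcs1 had 9288 normalized counts, against 3237 to 4963 in the other VPA livers. The same liver had 4496 of Aacs, against 1486 to 2486, and 4558 of Acat2, against 1626 to 2371. Etfdh had 5866 in VPA replicate 1, against 4424 to 4940 in the others. The estimated depth of VPA_OCA replicate 1 was 37766890 reads, against 19683964 to 21130528 in the other VPA_OCA libraries. None of the values of Acat1, Bdh1, Bdh2 and Oxct1 stood apart in this way.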

How the results depend on the processing

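Bdh2 stayed above 0 under all 26 alternatives run for single genes and kept its call under 0.05 in 24 of them. It lost the call within numbers 1 to 3 alone (log2 fold change 0.91) and 4 to 6 alone (0.52), where n is 3 a group. The thresholds of 0.10 and 0.01 are not among these 26 and were applied to the counts of genes called. At 0.01 Bdh2, with a limma adjusted p of 0.012, would not pass. With each of the 12 libraries left out its log2 fold change was 0.62 to 0.77, with a limma adjusted p of 0.013 to 0.038. Acat1, Bdh1 and Oxct1 passed under none of the alternatives. Their signs changed with the set: Bdh1 measured 0.09 within 4 to 6, Acat1 -0.17 within 1 to 3 and -0.03 without VPA replicates 4 and 5, and Oxct1 0.10 within 1 to 3. With single libraries left out, Acat1 ran from -0.04 to 0.15, Oxct1 from -0.20 to 0.02, Acat2 from -0.01 to 0.36 and Ppara from -0.12 to 0.0048. Within numbers 1 to 3, Ppara measured 0.03, Fgf21 -0.62 and Hmgcs1 -0.43. Slc16a1 measured 0.09 within 4 to 6, and Slc16a6 0.01 without VPA replicates 4 and 5. The cause was not tested.

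With the replicate number as a block, 129 genes were called higher and 81 lower, against 84 and 53 without it, and the block changed no call among the genes run under all alternatives, nor for Slc1a2, Rhbg and Cdh1. Whether the numbers pair the libraries is not known. The genes most like Acat1, Bdh1 and Oxct1 were not run under the alternatives. The term for the sets gave 254 higher and 150 lower, a threshold of 0.10 gave 141 and 82, and one of 0.01 gave 46 and 16. The lower count was 26 without the trend and 29 within numbers 4 to 6. It ran from 28 to 49 with single libraries left out and moved by over 1.5 times when the library left out was 2, 3 or 6 of VPA, or 1, 3, 5 or 6 of VPA_OCA. What depth limits was not tested, and Oxct1 has fewer than 100 normalized counts per library.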
